A study of Mus musculus with 9 samples.

Results

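The genes described here are 10 mouse genes of foetal and imprinted growth control: Ndn, Hmga2, Grb10, Cdkn1c, Meg3, Dlk1, Igf2, Igf2bp3, Peg3 and Adgrg1. They were named as foetal, imprinted or stem cell genes with earlier results of these arrays in view, Ndn and Hmga2 because they were lower in both knockouts, and every probe set that the platform annotation gives to one of these genes alone was taken. This gave 44 of the 34945 probe sets with 1 gene, and 10 of 18193 genes. The cells were E2A-/-, Lyl1-/- and wild-type (WT) mouse bone marrow cells sorted as Lineage-CD117+SCA-1+CD135+, the early multipotent progenitors that still make both lymphoid and myeloid cells. RNA from 3 biological replicates of each genotype was hybridised to 9 Affymetrix arrays, 1 sample per array. The labels give no strain, age or sex, no details of the deleted alleles, and no word on pooling of animals.

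In an imprinted gene only the copy from one parent is used, and many imprinted genes set the pace of growth and the resting state of stem cells: Igf2, Dlk1 and Peg3 are expressed from the paternal copy, Cdkn1c, Meg3 and, in most tissues, Grb10 from the maternal one. Hmga2 and Igf2bp3 are not imprinted and belong to the foetal programme that lets foetal blood stem cells divide faster than adult ones, and Adgrg1 (GPR56) is an adhesion receptor of blood stem cells. E2A (gene Tcf3) and Lyl1 encode basic helix-loop-helix transcription factors, which bind DNA as dimers at the E-box, and complexes that also hold GATA factors are known in blood cells.

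The windows around the start sites of Ndn and Hmga2, the genes that the description turns on, and of Adgrg1, whose first window alone among those of the 10 genes held CAGGTG or CACCTG, the same E-box read on either strand, are printed here from RefSeq (GRCm38.p6), from 250 bases before to 50 after the start, read 5′ to 3′ on the gene's strand. Capitals mark every CANNTG, the E-box, which reads the same pattern on both strands, and every GATA or TATC, the same word on either strand. No match overlapped another in these windows.
Ndn, chr7:62348027-62348326, plus strand: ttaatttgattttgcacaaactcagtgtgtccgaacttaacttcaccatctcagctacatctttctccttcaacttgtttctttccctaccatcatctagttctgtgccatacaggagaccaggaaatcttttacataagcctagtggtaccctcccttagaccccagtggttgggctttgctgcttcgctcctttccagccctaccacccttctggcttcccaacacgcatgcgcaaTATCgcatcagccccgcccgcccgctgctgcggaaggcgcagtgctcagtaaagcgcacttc
Hmga2, chr10:120476420-120476719, minus strand: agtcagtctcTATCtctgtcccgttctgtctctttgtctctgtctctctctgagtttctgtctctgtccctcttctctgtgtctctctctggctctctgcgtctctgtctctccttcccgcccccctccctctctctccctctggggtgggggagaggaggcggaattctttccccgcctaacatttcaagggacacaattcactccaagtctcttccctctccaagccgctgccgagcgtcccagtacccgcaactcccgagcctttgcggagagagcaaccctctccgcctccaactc
Adgrg1, chr8:94976859-94977158, plus strand: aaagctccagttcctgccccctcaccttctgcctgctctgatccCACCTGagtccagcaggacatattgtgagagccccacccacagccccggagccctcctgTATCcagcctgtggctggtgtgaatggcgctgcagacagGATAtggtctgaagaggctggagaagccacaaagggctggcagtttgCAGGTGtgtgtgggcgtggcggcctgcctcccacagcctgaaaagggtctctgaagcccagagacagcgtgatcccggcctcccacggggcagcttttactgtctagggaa
The Ndn and Hmga2 windows each held 0 E-boxes and 1 GATA or TATC word. The first Adgrg1 window, printed because of its motif, held 2 E-boxes, CACCTG and CAGGTG, and 2 GATA or TATC words. The second Adgrg1 window, not printed, held 1 E-box, CACTTG, and 0 GATA or TATC words. Over all 32851 RefSeq promoter windows of this length, 72.3% held at least 1 CANNTG, 39.6% at least 2, 20.2% a CAGGTG or CACCTG, and 57.9% a GATA or TATC word. RefSeq windows matched 9 of the 10 genes, 15 windows in all, of which 7 held an E-box, in 5 genes. A match is a run of letters and not a bound site, and no match says only that these letters are not in this window.

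Values are the deposited linear RMA intensities. The array medians lay between 77.9 and 79.2 and the lowest probe sets between 42.1 and 45.1, so a difference between dim probe sets is understated, and levels of different probe sets are not set against each other. WT 1 and WT 3 were far closer to each other than any other pair of the 9 arrays (spread 0.0827 on the log2 scale over the brighter probe sets, against 0.193 to 0.375), and they were averaged and counted as 1 sample in the fits, which leaves 2 WT samples. The deleted gene Lyl1 read 79.2 to 92.0 on the Lyl1-/- arrays, against 1352 to 1443 on the WT arrays. Tcf3 read 121 to 193 on the E2A-/- arrays, against 164 to 205 on the WT arrays, so this probe set does not separate the groups, and whether it lies in the deleted part is not given in the labels. Of the sorted markers, Kit read 314 to 508 and Flt3 (CD135) 672 to 1302 over all 9 arrays. Intensities come from whole sorted samples, in which fewer cells of a type and less RNA per cell cannot be told apart.

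Several features of the arrays moved with genotype or apart from it. The summed intensity of 12 mature granulocyte and monocyte genes was 17274 on E2A-/- 2 and 19792 on E2A-/- 3, against 2217 to 4251 on the other 7 arrays. Xist, the RNA of the silenced X chromosome, read 1811 to 2787 on E2A-/- 2, Lyl1-/- 1 and Lyl1-/- 2 and 49.2 to 57.5 elsewhere. The 3′ to 5′ ratio of the actin probe sets, a sign of RNA quality, was 10.1 on E2A-/- 2 and 10.6 on WT 2 and 2.85 to 4.23 elsewhere. Sums over markers of other cell types also differed between the genotypes. The summed intensity of 19 blood stem cell genes was 4460 to 5933 on the E2A-/- arrays, 4969 to 5318 on the Lyl1-/- arrays and 6255 to 6421 on the WT arrays. The summed intensity of 5 mature erythroid genes was 641, 667 and 1311 on the E2A-/- arrays, 388 to 466 on the Lyl1-/- arrays and 450.3 to 553 on the WT arrays. That of 10 endothelial genes was 1144 to 1402 on the E2A-/- arrays, 1437 to 1505 on the Lyl1-/- arrays and 1415 to 1718 on the WT arrays. The part of these features in the results below was not tested.

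Ndn encodes necdin, a paternally expressed protein that restrains cell division and is known to keep blood stem cells at rest. Its representative probe set (1437853_x_at) read 98.0, 91.6 and 98.7 on the E2A-/- arrays and 84.1, 85.2 and 104 on the Lyl1-/- arrays, against 203, 238 and 192 on the WT arrays. No knockout array reached any WT array. The geometric means were 96.0 in E2A-/- and 90.6 in Lyl1-/- cells, against 217 in WT cells (the 2 WT samples), a log2 difference of -1.18 ± 0.129 and -1.26 ± 0.129 (SE), or 2.26-fold and 2.40-fold lower. Since Ndn was chosen for this difference, it is a description and carries no test.

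Of the 8 Ndn probe sets, 5 passed the filter on dim signal (brighter than the median of the array on 3 arrays or more), and these 5 were lower on every knockout array than on every WT array. Among the other 4 of these, 1455792_x_at differed most, at 94.1, 78.0 and 61.2 in E2A-/- and 69.8, 59.2 and 81.1 in Lyl1-/- cells, against 219.7, 299 and 202 in WT cells. The least different, 1415923_at, read 61.6 to 74.3 in E2A-/- and 60.5 to 67.9 in Lyl1-/- cells, against 96.0 to 105 in WT cells. It was brighter than the array median on the WT arrays alone, so passing the filter already put WT above the knockouts. Its direction therefore adds nothing to that of the others. The 3 remaining probe sets, 1438939_x_at, 1438978_x_at and 1456575_at, were dim on all arrays, WT included, and differed from WT by -0.05 to 0.04 on the log2 scale.

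Hmga2 encodes an architectural chromatin protein of foetal stem cells that is normally kept low in adult ones by let-7 microRNAs. The representative probe set (1450780_s_at) read 90.9, 103 and 91.2 on the E2A-/- arrays and 96.9, 91.7 and 101 on the Lyl1-/- arrays, against 166, 180.4 and 165 on the WT arrays. The groups did not overlap. The log2 difference was -0.86 ± 0.103 in E2A-/- cells and -0.84 ± 0.103 in Lyl1-/- cells (SE), or 1.82-fold and 1.79-fold lower, again as a description with no test.

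All 4 Hmga2 probe sets were lower on every knockout array than on every WT array. The representative one, chosen as the brightest on average, differed least. In 1450781_at the values were 75.4, 72.8 and 62.4 in E2A-/- and 70.7, 74.4 and 63.9 in Lyl1-/- cells, against 236, 282 and 230.4 in WT cells, a log2 difference of -1.87 and -1.88. The knockout values of that probe set lay at or below the array medians, where the constant background leaves little room for a further difference. Like 1446196_at, it was brighter than the array median on the WT arrays alone. Passing the filter thus already put WT above the knockouts for both, and their direction adds nothing to that of the others.

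The knockout arrays without high granulocyte genes, Xist or a high actin ratio were E2A-/- 1 and Lyl1-/- 3. Ndn and Hmga2 were chosen for their low knockout values, and the part of these features in them was not tested. E2A-/- 1 had a granulocyte and monocyte sum of 2488, an actin ratio of 2.85 and an Xist reading of 49.6, and read 98.0 for Ndn and 90.9 for Hmga2. Lyl1-/- 3 had a sum of 2509, a ratio of 4.23 and an Xist reading of 52.0, and read 104 for Ndn and 101 for Hmga2. Their stem cell sums, 5933 and 5137, were below those of WT, and E2A-/- 1 also had an erythroid sum of 641, above those of WT. The highest WT reading of both genes was on WT 2. There the stromal gene Col1a2 read 415, against 69.6 to 102 on the other 8 arrays, and Col1a1 was also highest, at 130. The rest of the stromal genes listed, Col3a1, Cxcl12, Lepr, Pdgfra, Pdgfrb, Adipoq, Lum and Postn, were not highest on WT 2. With WT 2 left out, the differences were -1.04 and -1.13 for Ndn and -0.80 and -0.78 for Hmga2 in E2A-/- and Lyl1-/- cells.

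**Figure D1:**
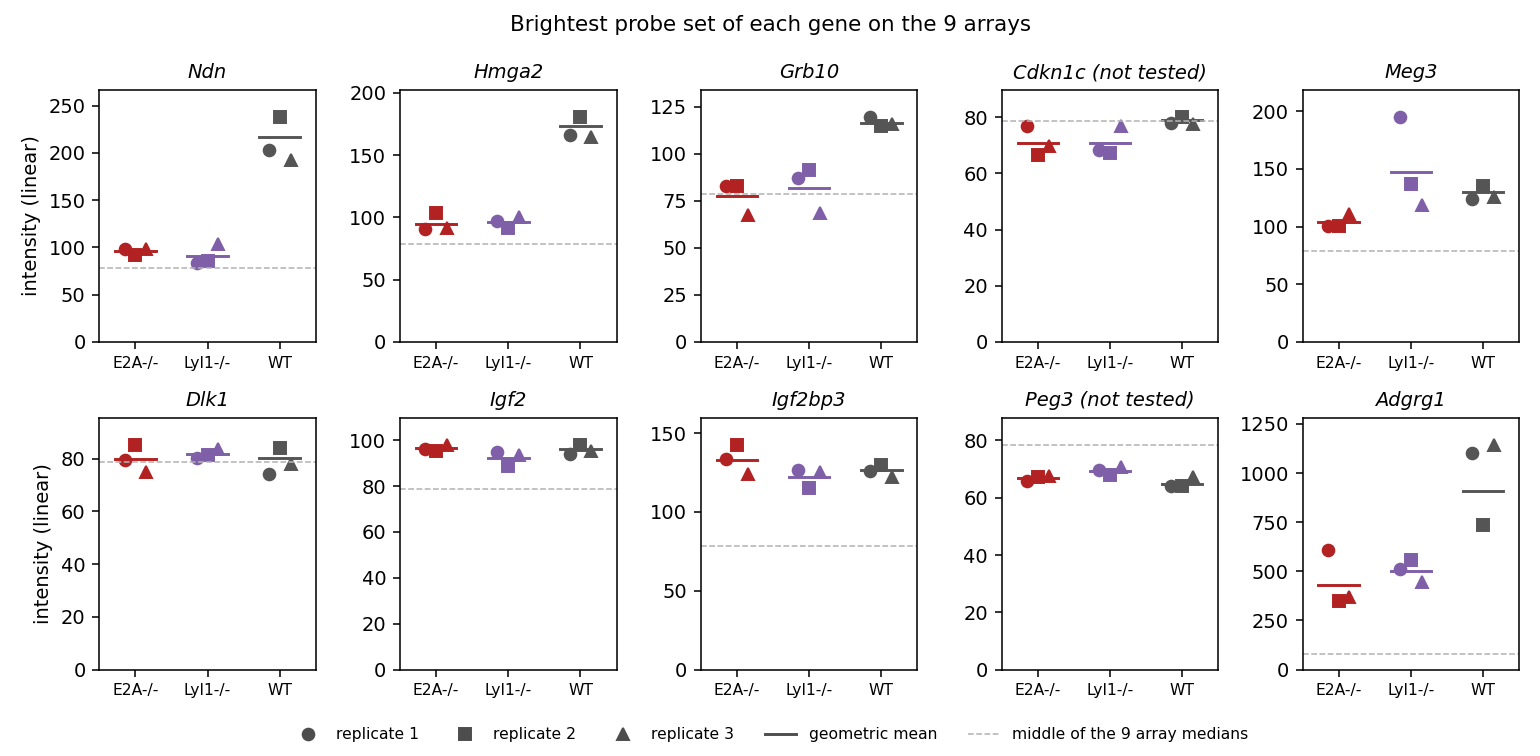
Linear intensity of the representative probe set of each of the 10 genes on every array, with E2A-/- and Lyl1-/- left of WT, bars at each genotype's geometric mean (WT 1 and WT 3 averaged first) and a dashed line at the middle of the array medians. All 6 knockout points lie under the 3 WT points for Ndn (84.1 to 104 against 192 to 238), Hmga2 (90.9 to 103 against 165 to 180.4), Grb10, Cdkn1c and Adgrg1, while Dlk1, Igf2 and Igf2bp3 overlap.

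Over the 10 genes, 19 of 44 probe sets were lower on all 3 E2A-/- arrays than on all 3 WT arrays, where 7.92% of all 34945 probe sets were. In Lyl1-/- cells the count was 14, where 9.02% of all probe sets were, and 14 probe sets were lower on all 6 knockout arrays, where 3.27% were. The 2 comparisons share the WT arrays, and part of the genes were chosen on them, so nothing is read from these counts. They came from 6 of the 10 genes: Ndn gave 5 of the 14, Hmga2 4, Adgrg1 2, and Grb10, Cdkn1c and Peg3 1 each.

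**Figure D2:**
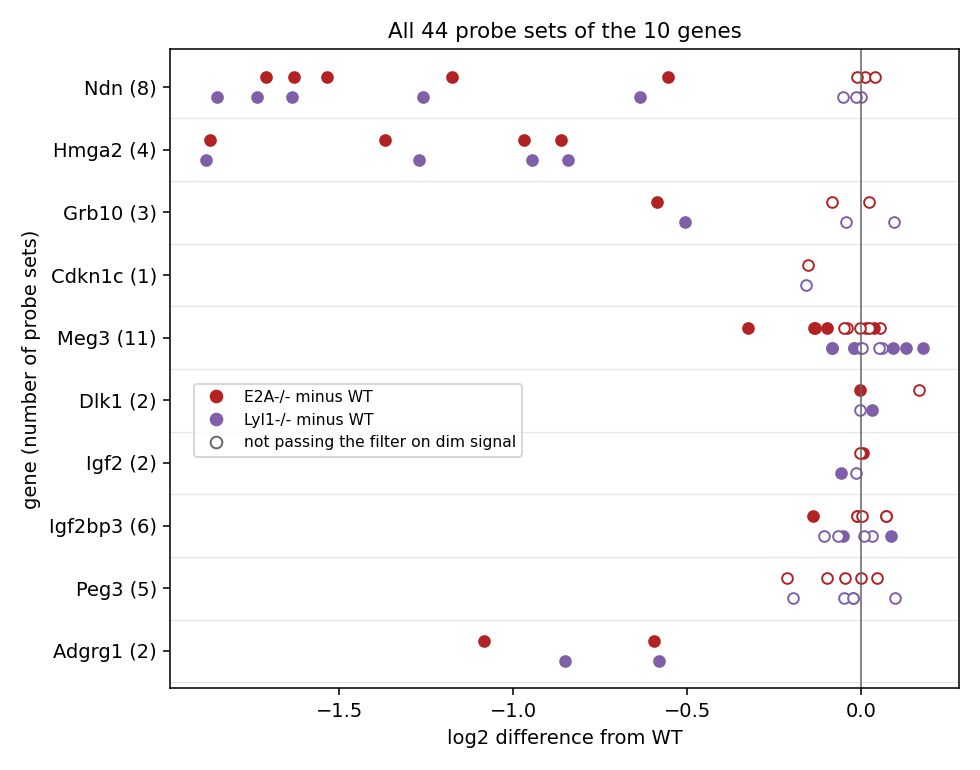
Log2 difference from WT of each of the 44 probe sets by gene, with E2A-/- and Lyl1-/- marked separately and open points for the 22 probe sets that did not pass the filter on dim signal. The points of Hmga2 lie between -1.88 and -0.84, those of Ndn split into 5 low and 3 near 0, and those of Meg3, Dlk1, Igf2 and Igf2bp3 lie between -0.33 and 0.18.

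Grb10 encodes an adaptor that dampens signalling from the insulin and IGF1 receptors. Its probe set 1425458_a_at read 83.2, 82.8 and 67.3 in E2A-/- and 87.2, 91.6 and 68.3 in Lyl1-/- cells, against 119.6, 115 and 116 in WT cells. Every knockout array was below every WT array, by -0.59 ± 0.152 in E2A-/- and -0.51 ± 0.152 in Lyl1-/- cells (log2, SE), which did not pass the limma test over 11961 genes (adjusted p = 0.277 and 0.363). The other 2 probe sets did not pass the filter on dim signal and did not repeat this difference. They read 63.2 to 78.6 over all arrays, WT included, and differed by only -0.08 to 0.09, which does not show unchanged RNA. The mean of the 3 probe sets differed by -0.22 and -0.15.

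Adgrg1 read 608, 351 and 368 in E2A-/- and 511, 559.5 and 445 in Lyl1-/- cells, against 1102, 733 and 1144 in WT cells (1433485_x_at). The groups did not overlap, and the WT arrays were spread, with the lowest reading on WT 2. The log2 difference was -1.08 ± 0.263 in E2A-/- and -0.85 ± 0.263 in Lyl1-/- cells (SE), 2.12-fold and 1.80-fold lower, and passed the limma test in neither (adjusted p = 0.238 and 0.381). A second probe set, 1421118_a_at, read 380.4 to 457 in E2A-/- and 385 to 452 in Lyl1-/- cells, against 505 to 798 in WT cells. Without E2A-/- 2 and E2A-/- 3, the arrays with high granulocyte genes, the E2A-/- difference was -0.58, and without WT 2 it was -1.39. Adgrg3, a neighbour on the chromosome and another adhesion receptor, differed by -0.46 and -0.52 (limma adjusted p = 0.399 and 0.324). The other tested neighbours did not share this: Dok4 differed by 0.07 and -0.01, Ccdc102a by -0.08 and 0.13, and Kifc3 by 0.03 and 0.18.

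Cdkn1c encodes p57, a cyclin-dependent kinase inhibitor of resting stem cells. Its only probe set read 76.8, 66.7 and 69.7 in E2A-/- and 68.3, 67.3 and 76.8 in Lyl1-/- cells, against 77.8, 80.0 and 77.5 in WT cells. All these values lie around the array median, the gene was not tested, and the difference was -0.15 and -0.16 on the log2 scale.

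Meg3 is a long non-coding RNA of the imprinted locus that also holds Dlk1. Its brightest probe set (1439380_x_at) read 100.5, 100.2 and 111 in E2A-/- cells and 195, 137 and 119 in Lyl1-/- cells, against 124, 135 and 126 in WT cells. The E2A-/- arrays lay below WT by -0.33 ± 0.188 (limma adjusted p = 0.729), and the Lyl1-/- arrays spread on both sides, at 0.18 ± 0.188 (adjusted p = 0.898). The positive Lyl1-/- value rests on Lyl1-/- 1, without which it was -0.03. The other 10 Meg3 probe sets differed from WT by -0.14 to 0.13 in either knockout.

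The brightest probe sets of Dlk1, Igf2 and Igf2bp3 gave values near those of WT. Dlk1, a membrane protein of the Notch ligand family, read 79.6, 85.3 and 74.9 in E2A-/- and 80.1, 81.4 and 83.8 in Lyl1-/- cells, against 74.3, 84.2 and 78.0 in WT cells. Igf2, the foetal growth factor, read 95.2 to 98.0 in E2A-/- and 88.6 to 94.9 in Lyl1-/- cells, against 94.1 to 97.8 in WT cells. Igf2bp3, a foetal RNA-binding protein of Igf2 and other messages, read 124 to 143 in E2A-/- and 115 to 127 in Lyl1-/- cells, against 122 to 130.0 in WT cells. Another Igf2bp3 probe set past the filter, 1422610_s_at, read 76.8 to 78.8 in E2A-/- and 75.5 to 109 in Lyl1-/- cells, against 83.9 to 88.8 in WT cells. It differed by -0.14 and 0.09 on the log2 scale, against 0.07 and -0.05 for the brightest, so they did not share a direction. None of the 3 genes passed the limma test by its brightest probe set. The 95% intervals of the log2 difference were -0.23 to 0.22 and -0.19 to 0.25 for Dlk1, -0.19 to 0.20 and -0.25 to 0.14 for Igf2, and -0.16 to 0.30 and -0.28 to 0.18 for Igf2bp3, in E2A-/- and Lyl1-/- cells. These probe sets lie close to the array background, so the intervals bound changes in intensity and not in RNA.

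Peg3, a paternally expressed zinc finger gene, had 5 probe sets and none of them passed the filter. They read 49.4 to 67.5 in E2A-/- and 51.8 to 70.8 in Lyl1-/- cells, against 52.5 to 75.1 in WT cells. One of them, 1433924_at, was lower on all knockout arrays, at 60.3 to 62.9 in E2A-/- and 58.2 to 66.5 in Lyl1-/- cells, against 68.2 to 75.1 in WT cells. Another, 1417355_at, read 65.9 to 67.5 in E2A-/- and 67.8 to 70.8 in Lyl1-/- cells, against 64.0 to 67.2 in WT cells, so the Peg3 probe sets do not share a direction.

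Of the 8 genes tested, 2 were past the limma threshold in E2A-/- cells, where 0.226% of 11961 genes were, and 2 in Lyl1-/- cells, where 0.192% were. Both were lower, as 0.109% and 0.125% of all genes were. They were Ndn and Hmga2, which were chosen for it, so nothing is read from this count, which was 0 in either knockout without WT 2. In Lyl1-/- cells it was also 0 without Lyl1-/- 1 or Lyl1-/- 2. In E2A-/- cells it was 1, Ndn, without E2A-/- 3, and also without Lyl1-/- 1 or Lyl1-/- 2, arrays outside that comparison that enter the same fit. The median log2 difference of the 8 genes was -0.46 in E2A-/- and -0.28 in Lyl1-/- cells, and that of all genes tested was -0.01 and -0.0048. Ndn and Hmga2 are among the 8 and were chosen for being lower, so nothing is read from these medians.

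The direct comparison of the knockouts was not used to choose the genes. E2A-/- and Lyl1-/- cells differed in 0 of the 8 tested genes by limma, where 0.117% of all genes did. At an unadjusted p under 0.05 there was 1, Meg3, where 8.64% of all genes were. Meg3 was lower on every E2A-/- array (100.2 to 111) than on every Lyl1-/- array (119 to 195), by -0.50 ± 0.168 on the log2 scale (SE; limma adjusted p = 0.453). Without Lyl1-/- 1 that difference was -0.30, the mean of its probe sets differed by -0.09, and its other 10 probe sets differed by -0.19 to 0.12. Igf2 was higher on every E2A-/- array (95.2 to 98.0) than on every Lyl1-/- array (88.6 to 94.9), by 0.06 with a 95% interval of -0.11 to 0.24. Among all genes, 6.45% were lower and 5.73% higher on all 3 E2A-/- arrays.

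No difference between the knockouts passed the test for Ndn or Hmga2. The E2A-/- over Lyl1-/- log2 difference was 0.08 for Ndn (95% interval -0.18 to 0.35, limma adjusted p = 0.920) and -0.02 for Hmga2 (-0.23 to 0.19, adjusted p = 0.988). Since both genes were chosen for being lower in both knockouts, the choice itself favoured like values in the 2. Adgrg1, at -0.23 with an interval of -0.77 to 0.31, and Grb10, at -0.08 with -0.39 to 0.23, were bounded less tightly.

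**Figure D3:**
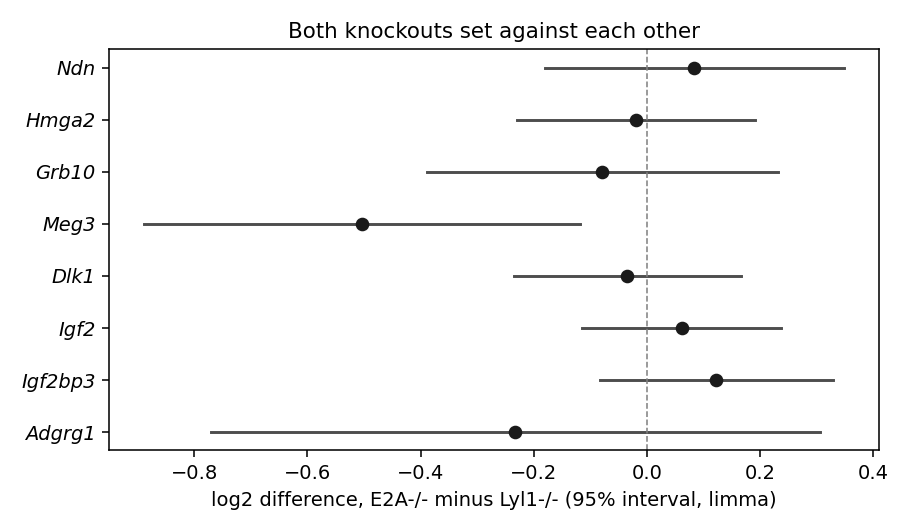
Log2 difference of E2A-/- over Lyl1-/- cells for the 8 tested genes, with 95% intervals from limma. The interval of Meg3, -0.89 to -0.12, is the only one of the 8 that leaves out 0, at a difference that was -0.30 without Lyl1-/- 1, and that of Adgrg1 is the widest.

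The genes whose profile was most like that of Ndn over the 8 samples, by Pearson's r of log2 intensity among 11960 other genes, were Ptp4a2 (r = 0.990), Smg1 (0.989), Ttc3 (0.980), Ptprm (0.980) and Fbxw17 (0.977). Hmga2 came at place 11 (0.970), Grb10 at 419 (0.744) and Adgrg1 at 454 (0.734). For Hmga2 the closest were Mtmr9 (0.980), Ptp4a2 (0.980), Ifi44l (0.975), Zscan29 (0.974) and BC018473 (0.973), with Ndn at place 8. These samples fall into a knockout and a WT group, and r carries the step between them: over the 6 knockout arrays alone, r between Ndn and Hmga2 was 0.05, and between Ndn and Ptp4a2 0.82. Each r is a description over few samples that share the WT arrays.

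Ptp4a2, a tyrosine phosphatase, read 1663, 1791 and 1870 in E2A-/- and 1549.8, 1655 and 2002 in Lyl1-/- cells, against 4441, 4823 and 4744 in WT cells. Mtmr9, a myotubularin-related protein, read 218, 241 and 187 in E2A-/- and 186, 214 and 231 in Lyl1-/- cells, against 1215, 1027 and 1224 in WT cells. Both genes were far lower on all 6 knockout arrays than on any WT array, which their choice by likeness to Ndn or Hmga2 favoured. Place 9 for Hmga2 was held by Nnt, picked out after its values were seen, a mitochondrial enzyme gene that is known to be disrupted in one substrain of C57BL/6 mice. Nnt read 469, 547 and 569.9 in E2A-/- and 555, 480.2 and 495 in Lyl1-/- cells, against 909, 1044 and 874 in WT cells. Whether the genotypes differed in strain background cannot be read from the labels, and its part in these values was not tested.

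**Figure D4:**
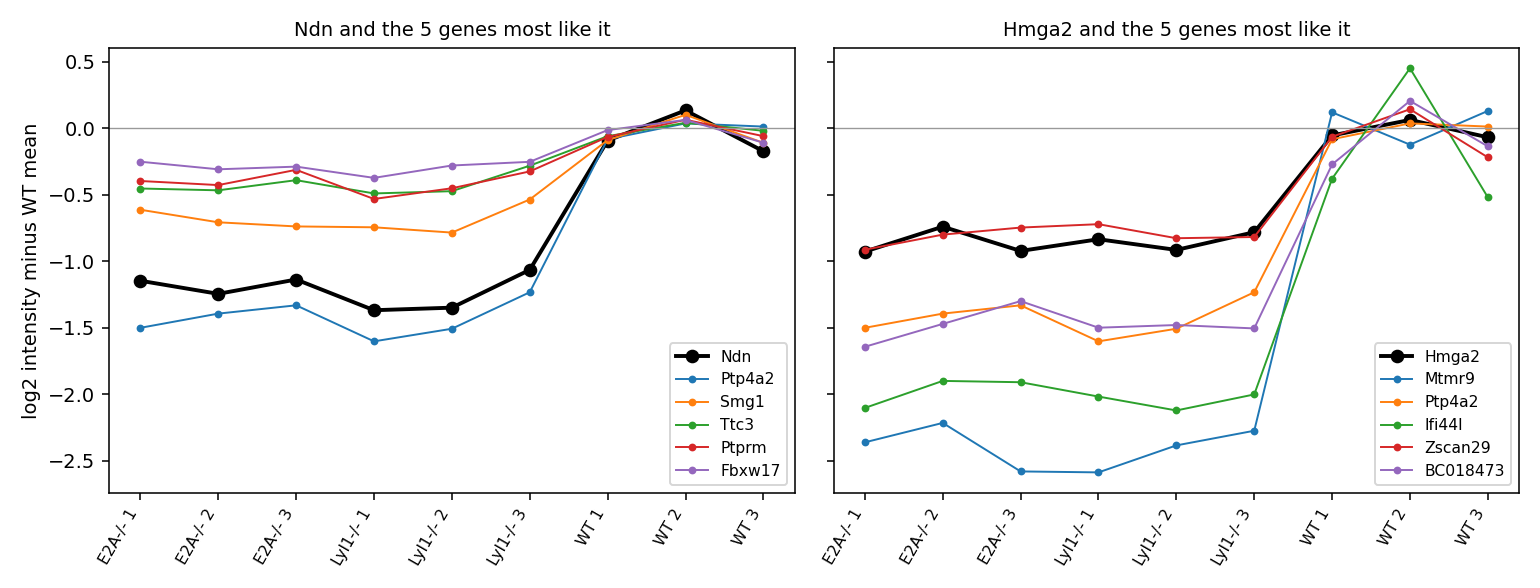
Log2 intensity minus the WT mean on the 9 arrays, knockouts before WT, for Ndn with its 5 most like genes and for Hmga2 with its 5. Each gene lies lower on the 6 knockout arrays than on any WT array. The choice by likeness to Ndn or Hmga2 favoured this, so nothing is read from it. Ptprm and Ifi44l were brighter than the array median on the WT arrays alone. The WT arrays of Ifi44l are spread (170.3 to 334 in intensity), and Mtmr9 lies lower than Hmga2 itself.

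The genes next to Ndn and Hmga2 on the chromosome gave smaller differences, which were not tested against those of the 2 genes. In the imprinted cluster of Ndn, the paternally expressed Snrpn differed by 0.01 and 0.04 on the log2 scale in E2A-/- and Lyl1-/- cells, and the ubiquitin ligase gene Ube3a by -0.03 and 0.04. Snrpn read only 71.5 to 83.2 over all arrays, around the array median, so its values near 0 do not show unchanged RNA. On the other side of Ndn, Klf13, a zinc finger factor gene, differed by 0.19 and 0.38, and Mtmr10 by -0.02 and -0.02. Magel2, Mkrn3 and Peg12, which share that cluster, were too dim to test, at 65.5 to 81.2, 53.9 to 68.9 and 64.9 to 87.2 over all arrays. The tested neighbours of Hmga2 in the RefSeq order (GRCm38.p6) were Irak3 (-0.05 and -0.02), Tmbim4 (-0.04 and 0.22), Msrb3 (-0.17 and -0.18) and Lemd3 (-0.08 and -0.27). None of these passed the limma test.

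Other imprinted genes did not pass the limma test in either knockout, where 0.226% and 0.192% of all genes did. Of 58 listed, 50 had a probe set of their own and 29 were tested. In E2A-/- cells 19 of the 29 lay below WT, where 53.7% of all genes did, with a median log2 difference of -0.03 and 4 genes at an unadjusted p under 0.05, as 8.57% of all genes were. In Lyl1-/- cells 18 lay below, where 51.4% of all genes did, with a median of -0.04 and 6 such genes, as 8.8% of all genes were. The groups did not overlap for 7 genes in E2A-/- cells, all lower, where 10.3% of all genes were lower and 7.45% higher in this way. In Lyl1-/- cells 8 were lower and 2 higher without overlap, where 12.2% and 9.9% of all genes were.

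The smallest p-values among these fell to Sgce, the paternally expressed sarcoglycan gene, and Kcnq1ot1, the non-coding RNA of the Cdkn1c domain, in E2A-/- cells, and to Cd81, a tetraspanin, and Sgce in Lyl1-/- cells. Sgce read 119, 96.6 and 89.8 in E2A-/- and 91.8, 102 and 131 in Lyl1-/- cells, against 165, 148 and 147 in WT cells, which gave -0.59 and -0.51 on the log2 scale (limma adjusted p = 0.355 and 0.432). Kcnq1ot1 read 164, 151 and 104 in E2A-/- cells, against 194, 206 and 200.4 in WT cells, a difference of -0.55 (adjusted p = 0.412). Cd81 read 432, 504 and 531 in Lyl1-/- cells, against 658, 765 and 633 in WT cells, a difference of -0.53. Phlda2, a neighbour of Cdkn1c that restrains placental growth, read 79.2, 82.8 and 73.0 in Lyl1-/- cells, against 95.4, 91.2 and 91.9 in WT cells. Between the knockouts, Igf2r, the receptor that clears IGF2, read 133, 166 and 112 in E2A-/- cells and 78.2, 73.6 and 102 in Lyl1-/- cells, a difference of 0.69 (limma adjusted p = 0.321).

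Among the other genes of the pathways around the 10, 1 passed the limma test against WT. Of all genes, 0.226% passed in E2A-/- and 0.192% in Lyl1-/- cells. Of the foetal stem cell programme, 7 of 15 listed genes were tested and 0 passed in either knockout, with medians of -0.0011 and 0.04. Mycn differed most there in E2A-/- cells, by -0.54, and Lin28b, the let-7 inhibitor upstream of Hmga2, read 46.3 to 56.3 on all arrays and was not tested. Of the let-7 targets related to Igf2bp3, Igf2bp1 differed by 0.08 and 0.07, and Igf2bp2 was not analysed here. Of the IGF pathway, 13 of 19 were tested and 0 passed. In each knockout 9 of the 13 lay below WT, where 53.7% and 51.4% of all genes did. The medians were -0.06 and -0.09, and those of all genes tested -0.01 and -0.0048. At an unadjusted p under 0.05 the limma fit gave 1 gene of the foetal list and 1 of the IGF list in E2A-/- cells, where 8.57% of all genes had one, and 0 and 3 in Lyl1-/- cells, where 8.8% had one.

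Among the cell cycle genes around Cdkn1c and necdin, 18 of 19 were tested. In E2A-/- cells 11 of the 18 lay above WT, where 46.3% of all genes did, with a median of 0.07, and 0 passed the limma test (3 at an unadjusted p under 0.05, as 8.57% of all genes were). In Lyl1-/- cells 13 lay above, where 48.6% of all genes did, with a median of 0.12, and 1 rose past the threshold (4 higher and 1 lower at an unadjusted p under 0.05, as 8.8% of all genes were). That gene was Cdkn1a, which encodes the kinase inhibitor p21: it read 272, 254 and 192 in Lyl1-/- cells, against 119, 115 and 119 in WT cells, higher by 1.02 on the log2 scale (limma adjusted p = 0.048), where 0.0669% of all genes rose. In E2A-/- cells Cdkn1a read 145, 150.1 and 151.

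Of the 20 blood stem cell genes listed, 16 were tested. Of these, 16 lay below WT in E2A-/- and 15 in Lyl1-/- cells, where 53.7% and 51.4% of all genes did. The medians were -0.30 and -0.29, and those of all genes tested -0.01 and -0.0048. None passed the limma test in either comparison, where 0.226% and 0.192% of all genes did. By the same fit 6 and 4 had an unadjusted p under 0.05, where 8.57% and 8.8% of all genes did. In E2A-/- cells Mecom, a regulator of stem cell maintenance, differed by -0.76 and Pdzk1ip1 by -1.13, and in Lyl1-/- cells Meis1, a homeobox cofactor, by -0.82 and Gata2 by -0.44. For 8 of the 16 in each knockout all 3 arrays were below all WT arrays, where 10.3% and 12.2% of all genes were.

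**Figure D5:**
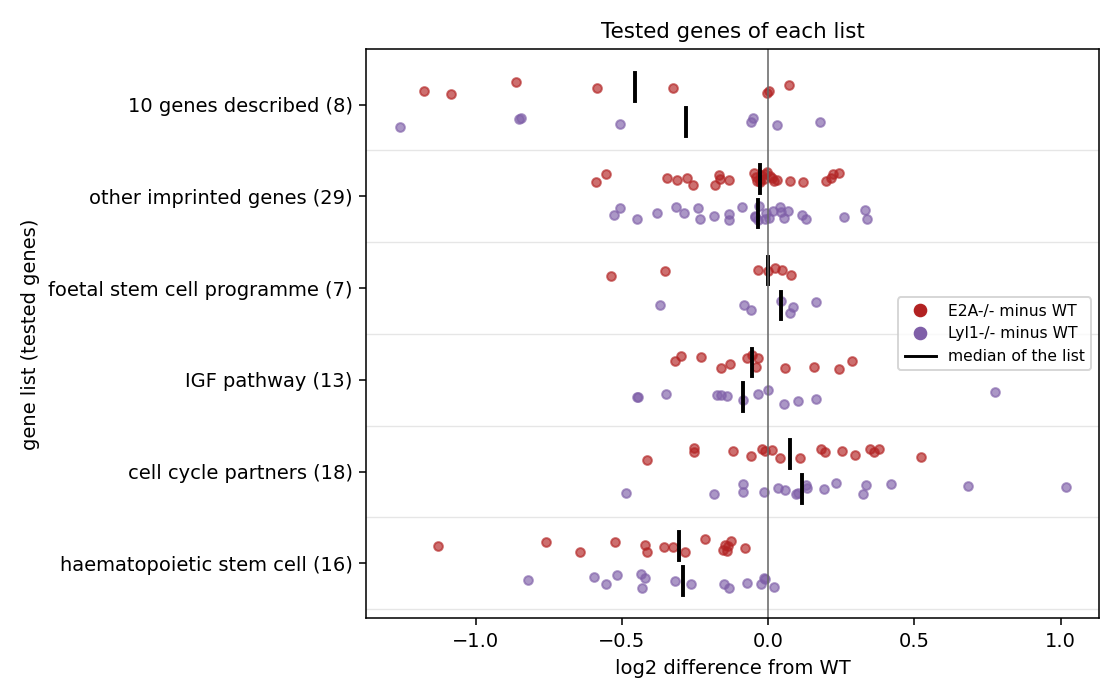
Log2 difference from WT of the tested genes of 6 lists, E2A-/- before Lyl1-/-, with a bar at each list's median. The stem cell genes lie almost all below 0 (medians -0.30 and -0.29), the other imprinted genes lie around 0 (-0.03 and -0.04), and the cell cycle genes lie slightly above (0.07 and 0.12).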

How the data were processed

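The values were 1 deposited table of intensity per probe set on a linear scale for the 9 arrays, 45101 probe sets, made by the authors with RMA and oligo per the submitters' processing notes; other settings are not given in those sources. The log2 of each intensity was taken with no pseudocount. After 64 control probe sets, 34945 had 1 gene in the platform annotation, 932 had several and 9160 none. The probe set with the highest mean represented each gene, and 11961 genes brighter than the median of the array on 3 arrays or more were fitted with limma 3.58.1 (R 4.3.3) over 3 genotypes and 8 samples, with Benjamini-Hochberg adjustment at 0.05 and 5 residual degrees of freedom. The fit was tested on simulated data. The small number of arrays limits the precision. Members, lists and tests were chosen with earlier results of these data known. Genes named were the members, up to 4 genes of a list by smallest p, and the 5 most like profiles. Alternatives were other scalings, filters and probe set choices, the floor, covariates, the replicate block and left-out samples.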

Additional observations from a re-analysis of the deposited data

How the results depend on the processing

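Over 24 alternatives, Ndn and Hmga2 lay below WT in both knockouts in every one, at -1.66 to -0.82 and -1.28 to -0.80 in E2A-/- and -1.81 to -0.90 and -1.24 to -0.77 in Lyl1-/- cells. Both genes were chosen for being lower on these same arrays, so nothing is read from the shared direction. The count of members past the threshold was 2 for each knockout. With only the compared groups fitted it was 0 in E2A-/- and 1 in Lyl1-/- cells, with the Xist-based sex covariate 1 and 0, with the actin ratio as covariate 1 in Lyl1-/- cells, without WT 1 and WT 3 it was 1 and 1, without WT 2 and E2A-/- 2 it was 0 and 0, and without E2A-/- 2 and 3 it was 0 and 1. Leaving out 1 sample gave 0 to 2 in each, and E2A-/- against Lyl1-/- gave 0 throughout. The 27, 23 and 14 genes past the threshold ranged over 6 to 97, 7 to 93 and 3 to 23, the most with WT 1 and WT 3 kept apart (97 and 93). The r of deviations was -0.12 to 0.23 for arrays with shared replicate numbers and -0.24 to 0.18 for those with other numbers. These overlapping ranges do not settle whether the numbers pair the samples, and the main fit used no pairing. The replicate block gave 2, 2 and 0 members and 60, 55 and 13 genes.

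Values near 0 changed sign. For Dlk1 in E2A-/- against WT this gave 0.0041 with quantile scaling, 0.0028 with median centring, 0.0201 with 9 separate samples, with the replicate block or without it, 0.0166 with the actin ratio, 0.0208 without WT 2 and E2A-/- 2, and -0.0516 to 0.0684 with 1 sample left out. For Igf2 it gave -0.0102 with the floor subtracted, -0.0200 without WT 1 and WT 3, -0.0017 without E2A-/- 2 and 3, and -0.00798 to 0.0276 with 1 left out. In Lyl1-/- against WT, Meg3 was -0.0258 to 0.33 with 1 left out and Dlk1 -0.0421 without WT 1 and WT 3. Between the knockouts, Hmga2 was -0.0813 to 0.0124, Grb10 -0.21 to 0.0221 and Dlk1 -0.0819 to 0.0115 with 1 left out; Grb10 was 0.0101 with the sex covariate and 0.0250 without E2A-/- 2 and 3, where Adgrg1 was 0.27. With the floor subtracted, Grb10 was -1.05 and -0.87. The stricter filter gave no value for Dlk1 and Grb10, nor the mean of probe sets for Dlk1, Igf2 and Igf2bp3. The causes were not tested. Most members lie close to the array floor, which limits what these arrays can show for them.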
